A study of Rattus norvegicus with 13 samples.

Results

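The genes described here encode the proteins of the mitochondrial ribosome, and were taken as every row of the deposited table whose symbol starts with Mrps or Mrpl followed by a digit. This gave 73 of 14790 genes, of which 29 carry an Mrps symbol, given to proteins of the small subunit, and 44 an Mrpl symbol, given to those of the large subunit. The RNA-seq samples are mammary epithelial cells of Wistar-Furth rats. Of these rats 6 were 6 weeks old, an age inside the window of susceptibility (WOS) to mammary cancer, and 7 were 10 weeks old, outside WOS. Each rat gave 1 library, and the labels name no other treatment or allele at either age. By the paper's RNA-seq methods, minced mammary glands were digested with collagenase, and ductal organoids were collected by centrifugation. These organoids keep some fibroblasts and immune cells beside the epithelium. Since these are bulk samples, fewer cells of a type and less RNA per cell cannot be told apart.

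Mitochondria keep a small genome of their own, and the few proteins it encodes, all of them core subunits of the respiratory chain and the ATP synthase, are made by a dedicated ribosome. Its RNAs come from the mitochondrial genome, while every one of its proteins is encoded in the nucleus, made in the cytosol and imported. Many of these proteins have a counterpart in bacterial ribosomes, and the others were gained in mitochondria.

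The deposited values are counts that were scaled in each library and rounded to whole numbers, and are called normalized counts below. Their total per rat ran from 13261906 to 15659533. In 7 of the 13 rats some whole numbers between 1 and 30 never occur, so the precision of low values differs between rats. Both ages were set against each other by limma, fitted to log2(normalized count + 1) over all genes, and a gene is called differentially expressed (DE) at a Benjamini-Hochberg adjusted p under 0.05. A log2 fold change above 0 stands for a higher level at 6 weeks, and the added 1 makes the change of genes with low counts look smaller than it is. All 73 members reached the minimum mean of 1. Their means over the 13 rats ran from 6.08 to 467 with a median of 94.3. Gene lengths were not used, so no order of level between genes is read from these values.

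Within WOS, 9 of the 73 mitochondrial ribosomal protein genes were DE and higher (12.3%, against 8.71% of all genes), and 2 were DE and higher at 10 weeks (2.74%, against 7.39%). The 9 were Mrps12, Mrps9 and Mrps23 of the small subunit and Mrpl36, Mrpl14, Mrpl23, Mrpl39, Mrpl32 and Mrpl20 of the large subunit, with log2 fold changes from 0.55 to 1.43. The 2 were Mrps2 and Mrps6, both of the small subunit, at -0.59 and -0.40. The other 62 members did not pass the test, 50 of them with a log2 fold change above 0 and 12 with one below 0. At an unadjusted p under 0.05 the counts were 20 members higher within WOS (27.4%, against 16.8% of all genes) and 2 higher outside WOS (2.74%, against 14.8%).

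Over all 73 members the log2 fold change had a median of 0.35, with quartiles of 0.13 and 0.63, against a median of 0.028 over all genes. It was above 0 for 59 members (80.8%), against 52.5% of all genes. Rescaling a library shifts the log2 values of all its genes alike, apart from the effect of the added 1. Both medians therefore moved together under each of the 4 other scalings tried. That the gap of 0.32 between members and all genes stayed is thus no check on it. The gap did not hold in every set of rats. Without rats 70 and 84 the median of the members was 0.14, and in the smaller of the rat sets described below it was 0.024.

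**Figure D1:**
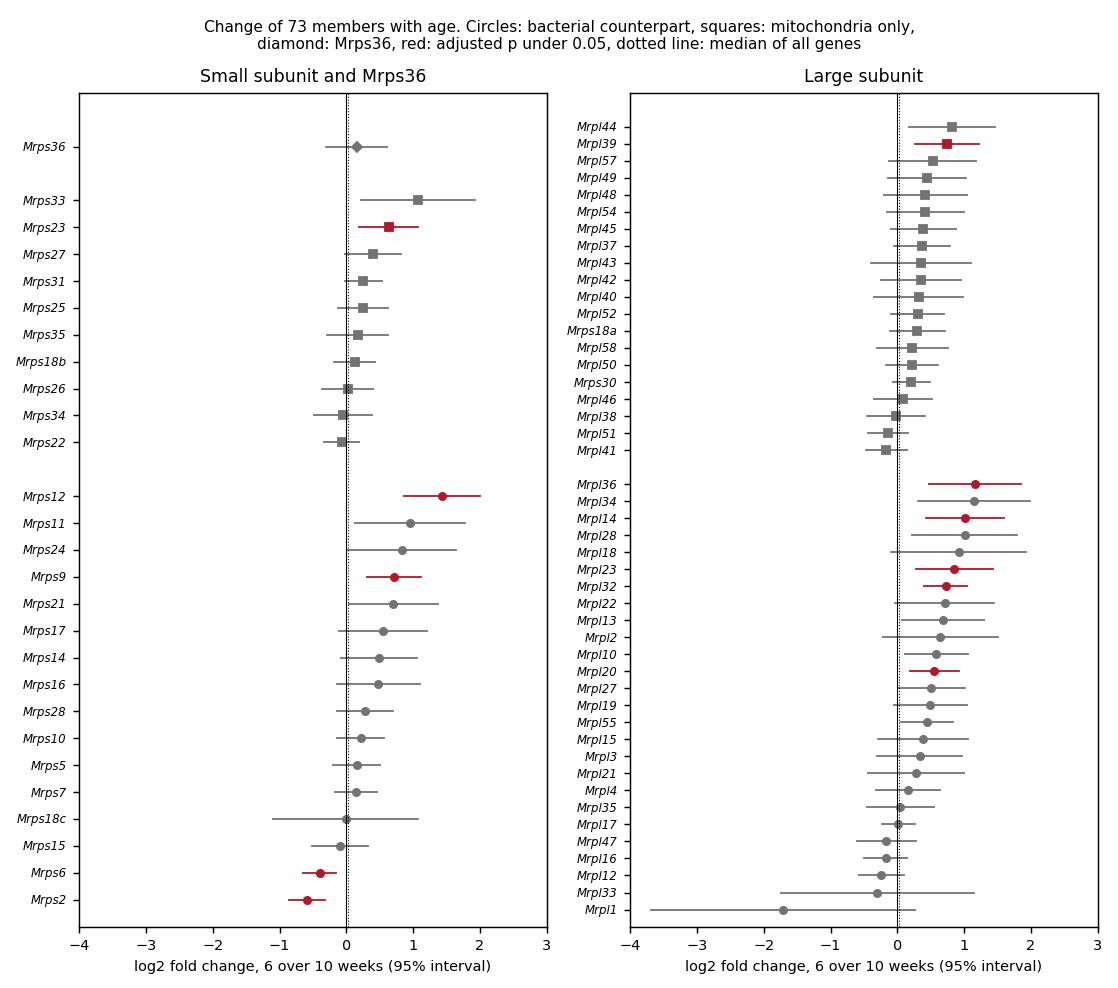
Log2 fold change of each of the 73 genes (6 over 10 weeks, horizontal axis) with its 95% interval, the small subunit and Mrps36 on the left and the large subunit on the right, red where the adjusted p was under 0.05. Most points lie to the right of 0, and the 11 DE genes run from Mrps2 at -0.59 to Mrps12 at 1.43, while the interval of most grey genes crosses 0.

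Of the 42 genes for proteins with a bacterial counterpart, 7 were DE and higher within WOS (16.7%, against 8.71% of all genes) and 2 higher outside WOS (4.76%, against 7.39%), with a median log2 fold change of 0.48. The 30 genes for proteins found in mitochondria only had 2 DE genes, both higher within WOS (6.67%), and a median of 0.30. By subunit, the 26 large subunit genes of bacterial type had 5 DE genes and a median of 0.50, and the 20 large subunit genes known in mitochondria only had 1 and a median of 0.34. In the small subunit the 16 genes of bacterial type split 2 against 2 with a median of 0.38, and the 10 of mitochondria only had 1 DE gene and a median of 0.21. Here Mrps30 and Mrps18a were placed with the large subunit, where their proteins sit despite their symbols. These differences between groups of members were not tested.

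Of the small subunit genes, Mrps12 changed most. It encodes the homologue of bacterial S12, which lines the decoding centre. Its normalized counts ran from 31 to 58 at 6 weeks (median 47.5) and from 10 to 26 at 10 weeks (median 12). Every rat within WOS lay above every rat outside WOS. The means were 45.3 ± 11.8 (SD, n = 6) and 16.9 ± 7.08 (SD, n = 7), a log2 fold change of 1.43 (SE 0.26, adjusted p = 0.00349 by limma).

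Mrps9 encodes the homologue of bacterial S9, whose tail reaches the tRNA in the peptidyl site. It ran from 169 to 283 normalized counts at 6 weeks (median 198.5) and from 78 to 167 at 10 weeks (median 134). The ages did not overlap here either, by a margin of 2 counts between rat 80 at 6 weeks and rat 85 at 10 weeks. Its log2 fold change was 0.71 (SE 0.19, adjusted p = 0.0235), but the adjusted p was 0.0584 without rat 70 and 0.0569 without rat 84. Mrps23, a protein of the mitochondrial small subunit only, had 85 to 169 normalized counts (median 105.5) against 57 to 104 (median 68). Its ages overlapped, with 3 of 6 rats within WOS above all others. It passed the test narrowly (log2 fold change 0.63, SE 0.20, adjusted p = 0.0494). Without rat 70, 71, 80, 84, 72, 74, 78, 83, 85 or 87 its adjusted p was between 0.0548 and 0.113, and it was 0.0519 under median-ratio scaling, 0.0529 under library size scaling and 0.0518 with a pseudocount of 0.1. Mrps12 and Mrps9 are the only members with every 6-week rat above every 10-week rat, or 2 of 73, where 3.29% of all genes are so ordered.

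Both DE genes that were higher outside WOS lie in the small subunit. Mrps2 encodes the homologue of bacterial S2, a protein of the small subunit. It had 275 to 439 normalized counts at 6 weeks (median 386) and 464 to 626 at 10 weeks (median 581). Every rat within WOS lay below every rat outside WOS, which holds for 1 of 73 members and for 2.78% of all genes. The means were 368.5 ± 58.3 (SD, n = 6) and 551 ± 62.3 (SD, n = 7), with a log2 fold change of -0.59 (SE 0.13, adjusted p = 0.00829). Mrps6, the homologue of bacterial S6, had 242 to 306 normalized counts (median 271.5) against 300 to 469 (median 336). Rat 75, at 306, was the 1 rat within WOS to reach the range of the older rats. The log2 fold change of Mrps6 was -0.40 (SE 0.12, adjusted p = 0.0343). Its call was lost under library size scaling with and without the mitochondrial genome (adjusted p = 0.0542 and 0.0755). It was also lost without rat 70, 71, 84, 72, 74, 78 or 87 (0.0504 to 0.0792).

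In the large subunit, Mrpl32 had the smallest adjusted p. Its protein, bL32m, is trimmed by the m-AAA protease of the inner membrane before it joins the ribosome. It had 102 to 170 normalized counts at 6 weeks (median 141) and 64 to 103 at 10 weeks (median 85). Only rat 75 within WOS, at 102, lay under the highest of the older rats, rat 81 at 103. The means were 138 ± 23.2 (SD, n = 6) and 83.4 ± 14.7 (SD, n = 7), and the log2 fold change was 0.72 (SE 0.15, adjusted p = 0.00657).

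Mrpl36 and Mrpl14 had the largest changes of the DE genes in the large subunit. Mrpl36 encodes one of the smallest ribosomal proteins, and had 33 to 68 normalized counts (median 50.5) against 10 to 49 (median 19), a log2 fold change of 1.16 (SE 0.32, adjusted p = 0.0272). Mrpl14 encodes a protein of the face that meets the small subunit, and had 36 to 109 (median 52) against 19 to 54 (median 27), a change of 1.02 (SE 0.27, adjusted p = 0.0252). In both genes 1 older rat, rat 81, stood above the other older rats, at 49 and 54, and 3 of 6 rats within WOS were higher still. Both calls were lost when rat 70, 84, 72 or 74 was left out, with adjusted p from 0.0512 to 0.0646.

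Mrpl23, which encodes a protein at the mouth of the exit tunnel, had 112 to 315 normalized counts (median 182.5) against 64 to 158 (median 111). Rats 70 and 84, at 305 and 315, stood far above the other 4 rats within WOS, whose highest value was 196. Its log2 fold change was 0.85 (SE 0.27, adjusted p = 0.0453), and the adjusted p was between 0.0560 and 0.106 without rat 70, 71, 80, 84, 72, 74, 78, 83 or 87 and 0.0510 under library size scaling. Mrpl39, a protein gained in mitochondria that resembles threonyl-tRNA synthetase, had 25 to 58 normalized counts (median 44.5) against 15 to 33 (median 23). In 4 of 6 rats within WOS it lay above all older rats. The log2 fold change was 0.75 (SE 0.22, adjusted p = 0.0375), with the call lost without rat 70, 71, 84, 86, 74, 78, 81 or 83 (0.0534 to 0.0882) and under limma-trend (0.0553). Mrpl20, whose bacterial homologue binds the large ribosomal RNA early in assembly, had 105 to 221 (median 193) against 93 to 152 (median 115). Apart from rat 75 at 105, all rats within WOS exceeded the older rats. Its log2 fold change was 0.55 (SE 0.17, adjusted p = 0.0429), and the call was kept only when rat 75 or 85 was the rat left out (adjusted p of at least 0.0568 without each other rat).

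**Figure D2:**
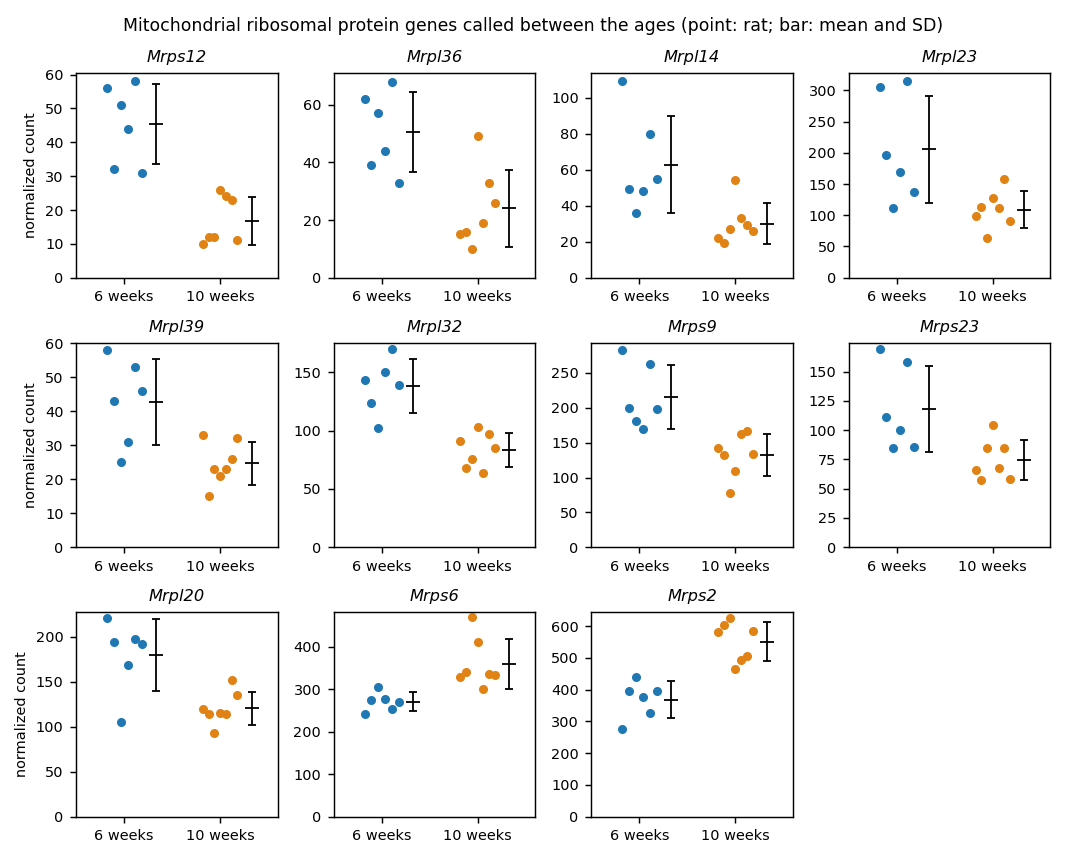
Normalized counts (vertical axis, from 0, its own scale for each gene) of the 11 DE genes in each of 6 rats at 6 weeks and 7 rats at 10 weeks, with the mean and SD beside the points. The ages are apart for Mrps12, Mrps9 and Mrps2 and overlap in the other 8 genes.

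Among the members that did not pass the test, Mrpl34, the homologue of bacterial L34, had one of the 3 largest log2 fold changes (1.15, SE 0.39, adjusted p = 0.0626). Its counts were low, from 12 to 21 at 6 weeks (median 13) and from 2 to 18 at 10 weeks (median 5), and without rat 83 or rat 85, the 2 highest of the older rats, its adjusted p was 0.0187 and 0.0331. It was 0.00849 with sample quality weights and 0.0493 under library size scaling without the mitochondrial genome. Mrpl1, the protein of the mobile L1 stalk, had the lowest log2 fold change, -1.72, with a 95% interval from -3.70 to 0.26 (adjusted p = 0.216). It was listed at 0 in 4 of 6 rats at 6 weeks and in 3 of 7 at 10 weeks, and reached 39 in rat 74. Mrpl33 was also low, with 0 in rat 80 and 15 to 27 in the other rats within WOS against 9 to 24 in the older rats, and its log2 fold change of -0.30 (adjusted p = 0.789) became 0.45 without rat 80 and -0.51 without rat 70 or 84. The interval of Mrpl33, from -1.74 to 1.14, crosses 0 as that of Mrpl1 does.

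Some members are bounded more tightly. Mrpl17, the homologue of bacterial L17, had 291 to 414 normalized counts (median 330) against 296 to 365 (median 343). The ages overlapped, with 2 of 6 rats within WOS above all older rats and 1 below all of them. The log2 fold change of Mrpl17, 0.016, had a 95% interval from -0.23 to 0.26 (adjusted p = 0.936). Its sign turned under median-ratio scaling (-0.0049) and without rat 70, 84 or 87. Mrpl12 forms the stalk that draws translation factors to the ribosome. It had 105 to 228 normalized counts (median 191) against 191 to 240 (median 204), and its log2 fold change of -0.24 had an interval from -0.58 to 0.095 (adjusted p = 0.309). Rat 86, at 105, was the lowest, and without it the log2 fold change was -0.097.

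Mrps30 and Mrps18a, of the large subunit, had log2 fold changes of 0.21 and 0.29 (adjusted p = 0.293 and 0.310). That of Mrps30 was 0.12 without rat 83, and that of Mrps18a was 0.19 without rat 84 and 0.55 with sample quality weights (adjusted p = 0.0183). Mrps36 matches the rule by its symbol, but its protein belongs to the 2-oxoglutarate dehydrogenase complex and not to the ribosome. It had 73 to 180 normalized counts (median 104) against 82 to 125 (median 99), with both ages overlapping and a log2 fold change of 0.16 (adjusted p = 0.647). This value was 0.012 without rat 84, 0.064 without rat 70, 0.25 without rat 75 and 0.27 without rat 80.

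The members moved together from rat to rat, and the rats within WOS were not alike. The mean deviation of the 73 members from their 13-rat means, on the log2 scale, was 0.55 in rat 70 and 0.63 in rat 84, and ran from -0.25 (rat 80) to 0.16 (rat 71) in the other 4 rats at 6 weeks. At 10 weeks it ran from -0.57 (rat 78) to 0.11 (rat 81). Only 3 of the 6 rats within WOS lay above all older rats. Of the 13 rats, rat 84 held the highest value for 31 members and rat 70 for 24, and rat 78 held the lowest for 27. Mean log2 levels over the members were 6.53 ± 0.34 (SD, n = 6) at 6 weeks and 6.19 ± 0.22 (SD, n = 7) at 10 weeks. No test was made of this mean.

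The count of DE members rested on these rats. Without rat 70 it was 2 higher within WOS (2.74%), where 5.43% of all genes were called, and without rat 84 it was also 2, where 5.8% were called. In each case 1 member was higher outside WOS, against 4.11% and 4.26% of all genes. Leaving out both rats, a choice made after the data were seen, gave 2 (2.74%, against 3.81% of all genes) and 1 (against 2.23%). In each of these 3 fits 3 of the 11 calls were kept, and Mrps12, Mrpl32 and Mrps2 were called in all 13 fits without 1 rat. The 6-week count fell by more than 1.5 times also without rat 71 (5, or 6.85%, against 6.64% of all genes), rat 72 (4, or 5.48%, against 6.36%), rat 74 (3, or 4.11%, against 6.09%) or rat 78 (5, or 6.85%, against 7.19%). The calls over all genes fell in these fits too, and the members' share was then near or below theirs.

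After the mean of each age was taken out, the rats fell into a larger set of 8 and a smaller set of 5 (rats 75 and 80 at 6 weeks and 78, 81 and 83 at 10 weeks) at the widest gap on the first principal component, which held 28.3% of what varied. The labels name no such split. The sets were cut on these same values, which by itself can lower the spread within an age and raise the number of calls. In the larger set, with 4 rats of each age, 28 members (38.4%) were DE and higher within WOS, against 13.6% of all genes. Another 3 were higher outside WOS, against 9.92%. There the mean deviation of the members lay between 0.075 and 0.63 at 6 weeks and between -0.22 and 0.079 at 10 weeks. In the smaller set, of 2 and 3 rats, limma called 0 members DE, with 1 at an unadjusted p under 0.05. Over all 14770 genes it called 0% in either direction there, with 13.4% at an unadjusted p under 0.05, so this 0 says nothing of the members. Their deviations, from -0.25 to -0.054 and from -0.57 to 0.11, overlapped. The difference between the sets was not tested. With limma's sample quality weights, which weigh down rats far from the others, 33 members (45.2%) were higher within WOS, against 20.3% of all genes. With these weights 2 were higher outside WOS, against 17.8%.

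**Figure D3:**
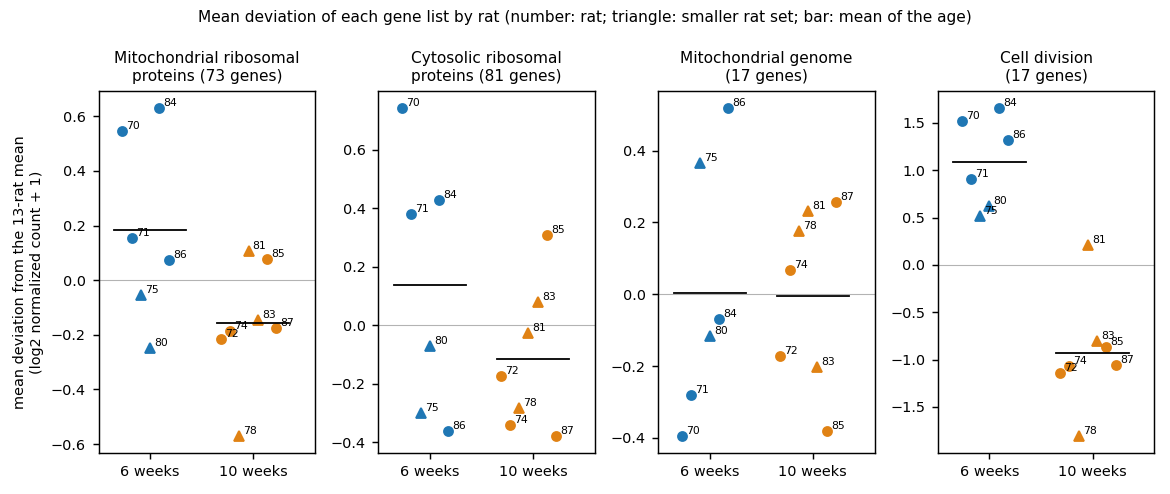
Mean deviation of each of 4 gene lists from its 13-rat mean (vertical axis, log2 of normalized count + 1, a scale of its own in each panel) in each rat, numbered, with triangles for the smaller rat set and a bar at the mean of each age. For the mitochondrial ribosomal proteins rats 84 and 70 stand highest, at 0.63 and 0.55, while the ages are apart for the cell division genes.

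The 81 genes for proteins of the cytosolic ribosome held 0 DE genes in limma, with 5 at an unadjusted p under 0.05. Over all genes, 8.71% were DE and higher within WOS and 7.39% higher outside WOS. At an unadjusted p under 0.05 these shares of all genes were 16.8% and 14.8%. Of the 81, 75 had a log2 fold change above 0 (92.6%, against 52.5% of all genes), and the median was 0.25. The mean deviation of the 81 was again high in rats 70 (0.74) and 84 (0.43). Some of these genes have near-identical copies that can share reads. The 17 genes of the mitochondrial genome, which encode the RNAs that the mitochondrial ribosome reads and is built on, also held 0 DE genes in limma, with 0 at an unadjusted p under 0.05. Their median log2 fold change of 0.015 lay below the median of all genes. Their mean log2 level was 12.7 at both ages, with a difference of 0.0074. The difference between these lists was not tested.

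Genes that build or serve the mitochondrial ribosome were read from lists of their known roles. Of 26 assembly and ribosomal RNA modification genes, 3 were DE and higher within WOS (11.5%, against 8.71% of all genes) and 1 higher outside WOS (3.85%, against 7.39%), with a median log2 fold change of 0.12. The 3 were Mpv17l2, a membrane protein bound to the large subunit (1.29, adjusted p = 0.0270), Rbfa, which helps mature the small subunit (0.65, adjusted p = 0.0261), and the RNA helicase Ddx28 (0.47, adjusted p = 0.0295). The 1 higher outside WOS was Tfb1m, which methylates the small ribosomal RNA (-0.55, adjusted p = 0.0373). Of 4 ribosomal proteins with other symbols limma called 0 DE, with 1 at an unadjusted p under 0.05.

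Of the 17 mitochondrial tRNA synthetases, which load the tRNAs that this ribosome uses, 3 (17.65%) were DE, all higher at 6 weeks. Over all genes this share was 8.71%. For 10 weeks the count of synthetases was 0, against 7.39% of all genes, and their median log2 fold change was 0.20. Among the 3 DE synthetases were Tars2, for threonine, and Iars2, for isoleucine, which changed by 0.66 and 0.49 (adjusted p = 0.0138 and 0.0147). Of 14 translation factors and partners only Oxa1l was DE, with a higher level at 6 weeks (7.14%, against 8.71% of all genes). Its protein inserts the new chains into the inner membrane, and it had 242 to 489 normalized counts (median 356) against 158 to 281 (median 193), a log2 fold change of 0.84 (adjusted p = 0.0125). The median over the 14 was -0.14.

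Of 22 genes for import into mitochondria, 2 were DE (9.09%, near the 8.71% of all genes), Timm21 (0.67, adjusted p = 0.0308) and Timm44 (0.63, adjusted p = 0.0414), both parts of the inner membrane route to the matrix and higher within WOS. Of 19 genes for the copying and transcription of mitochondrial DNA and the handling of its RNA, limma called 0 DE, with 4 at an unadjusted p under 0.05. The 10 nuclear regulators of mitochondrial genes held 4 DE genes, all higher outside WOS (40%, against 7.39% of all genes). Myc, a growth regulator of ribosome genes, had 2731 to 3566 normalized counts at 6 weeks (median 3077) and 4234 to 6359 at 10 weeks (median 5218), with no overlap (log2 fold change -0.73, adjusted p = 0.00172). Nrf1, a regulator of many nuclear genes for mitochondria, had 364 to 457 (median 432) against 492 to 633 (median 547), also with no overlap (-0.40, adjusted p = 0.0126). Pprc1, a coactivator of the PGC-1 family (-0.70, adjusted p = 0.0137), and the general factor Sp1 (-0.37, adjusted p = 0.0414) were the others.

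**Figure D4:**
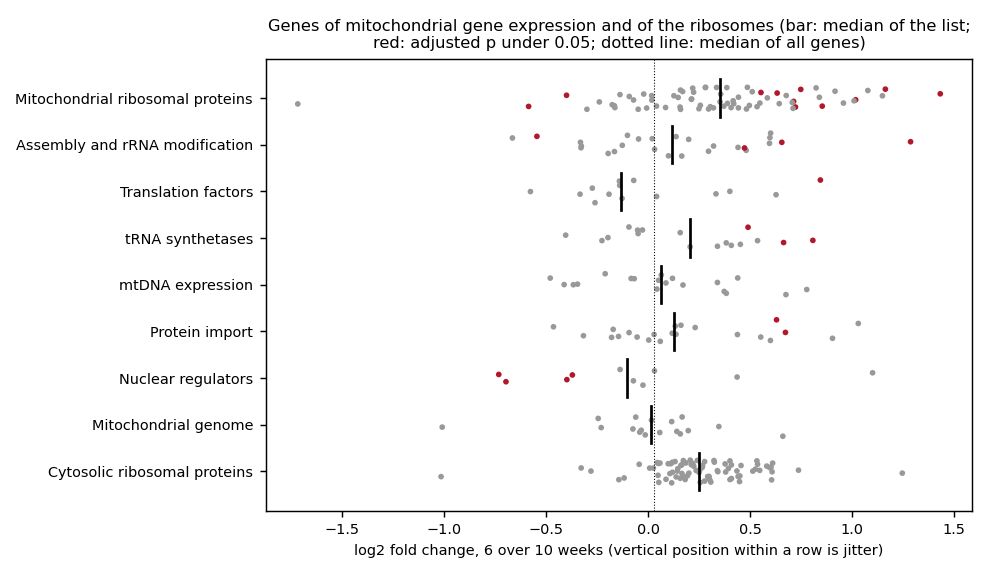
Log2 fold change (6 over 10 weeks, horizontal axis) of each gene in 9 lists, 1 point per gene, with a bar at the median of the list and red points for DE genes. The median of the 73 mitochondrial ribosomal proteins lies at 0.35, that of the cytosolic ribosomal proteins at 0.25, that of the mitochondrial genome at 0.015 and that of the nuclear regulators at -0.11.

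Markers of the cell types in the samples differed between the ages as well. All 10 luminal markers were present, with a summed level of 45190 to 71129 at 6 weeks and 64102 to 87217 at 10 weeks (2 of 10 DE, both higher outside WOS). Of 9 basal markers 1 was DE and higher outside WOS (23693 to 35955 against 32174 to 42435). The log2 fold change was above 0 for 5 of these 9 and below 0 for 4, with a median of 0.15. The fibroblast markers were apart between the ages, with 4 of 7 DE and higher within WOS and a sum of 106416 to 222193 against 19324 to 55299. Of 17 cell division genes 14 were DE and higher within WOS, with a sum of 4943 to 9277 against 2630 to 4085, and rats 84 and 70 had the highest mean deviation, 1.66 and 1.52. Adipocyte markers (2 of 6 DE and higher within WOS, 4859 to 7510 against 3350 to 6212) and immune markers (1 of 8, higher within WOS, 549 to 1199 against 440 to 1064) overlapped in sum. Of the 8 immune markers 5 had a log2 fold change below 0 and 3 one above 0, with a median of -0.24. Of 5 endothelial, 3 skeletal muscle and 2 brown adipocyte markers 0 were DE in limma, with 1, 1 and 2 at an unadjusted p under 0.05. The endothelial sum was 5286 to 9166 against 5063 to 8207, and the muscle and brown adipocyte sums were at most 73 and 56 in any rat. No marker in the table was at 0 in all rats. The part of these cells in the members' values was not tested.

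Promoter windows of 300 bases, from 250 before to 50 after the start, were at hand from RefSeq (build GRCr8) for 59 of the 73 members and for 10105 genes of the table. They were searched on both strands for the core letters bound by 4 factors known at such genes: GCATGCGC for NRF1, CCGGAAGT for GABP, AAGATGGC for YY1 and GGGCGG for Sp1. None of the 4 contains another. The YY1 letters were in 15 of 59 members (25.4%), against 5.55% of the table's genes and 3.17% of all 33469 windows. In 12 members (20.3%) they lay on the coding strand at or just after the start, against 2.95% of the table's genes, a stretch picked after the positions were seen. The NRF1 letters were in 5 members (8.47% against 4.87%), the GABP letters in 7 (11.9% against 7.94%) and the Sp1 letters in 30 (50.8% against 62.7%). In all windows these shares were 2.47%, 3.81% and 33.1%.

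Of the members with the YY1 letters, only Mrps6 had a log2 fold change below 0 (-0.40). The 15 members with the YY1 letters had a median log2 fold change of 0.29 and the 44 without them one of 0.43. Of the 15, 3 were DE, Mrpl32 and Mrpl36 higher within WOS and Mrps6 higher outside WOS. Over all genes, 8.71% were DE and higher within WOS and 7.39% higher outside WOS, so no excess is read from these small counts. The 5 members with the NRF1 letters had a median of 0.71 and the 54 without them one of 0.36. Of the 5, Mrpl32 alone was DE. For GABP the medians with and without the letters were 0.33 and 0.38, and for Sp1 they were 0.36 and 0.39. These differences were not tested. Windows are printed for 4 DE members, to set 2 genes that rose within WOS beside 2 that were higher outside WOS, each 5′ to 3′ on the gene's strand with the letters of any of the 4 motifs, on either strand, in capitals. They are chr17:55260401-55260700 (plus strand) for Mrpl32, chr1:31795072-31795371 (minus strand) for Mrpl36, chr11:44778417-44778716 (plus strand) for Mrps6 and chr3:32200827-32201126 (plus strand) for Mrps2.
Mrpl32: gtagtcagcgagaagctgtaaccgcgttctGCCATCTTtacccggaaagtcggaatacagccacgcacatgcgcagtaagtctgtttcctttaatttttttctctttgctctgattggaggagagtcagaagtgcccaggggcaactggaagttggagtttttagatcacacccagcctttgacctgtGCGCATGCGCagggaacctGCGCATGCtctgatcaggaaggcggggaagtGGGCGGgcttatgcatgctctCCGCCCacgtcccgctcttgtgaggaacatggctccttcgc
Mrpl36: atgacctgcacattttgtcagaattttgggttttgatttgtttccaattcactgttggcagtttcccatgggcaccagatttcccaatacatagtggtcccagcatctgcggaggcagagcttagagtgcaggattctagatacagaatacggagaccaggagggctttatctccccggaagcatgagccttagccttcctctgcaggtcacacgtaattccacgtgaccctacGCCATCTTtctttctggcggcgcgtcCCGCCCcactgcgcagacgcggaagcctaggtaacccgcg
Mrps6: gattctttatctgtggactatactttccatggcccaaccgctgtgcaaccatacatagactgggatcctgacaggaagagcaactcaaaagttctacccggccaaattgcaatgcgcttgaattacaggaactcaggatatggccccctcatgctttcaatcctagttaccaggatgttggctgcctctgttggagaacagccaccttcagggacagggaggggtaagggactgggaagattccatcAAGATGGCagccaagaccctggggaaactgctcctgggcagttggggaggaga
Mrps2: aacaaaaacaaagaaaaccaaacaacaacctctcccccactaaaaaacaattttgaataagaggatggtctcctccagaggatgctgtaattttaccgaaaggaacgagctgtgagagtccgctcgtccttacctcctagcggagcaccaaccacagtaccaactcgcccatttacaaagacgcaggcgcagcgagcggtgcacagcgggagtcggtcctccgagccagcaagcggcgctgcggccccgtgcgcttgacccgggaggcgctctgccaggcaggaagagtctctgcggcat
In Mrpl32 the capitals mark 3 NRF1 matches upstream of the start, some of them overlapping, 1 YY1 match at the far end and 2 Sp1 matches. In Mrpl36 they mark 1 YY1 match and 1 Sp1 match, in Mrps6 1 YY1 match across the start, and in Mrps2 there is none, which says only that these letters are not in this window.

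Many members start back to back with another gene. Of the 59 members with a window, 17 (28.8%) had the start of a gene on the other strand within 1000 bases upstream, against 15.8% of the table's genes. Mrpl46 and Mrps11 share such a stretch of 234 bases, and the pair of ribosomal genes had different values. Mrpl46 had 100 to 152 normalized counts (median 141) against 64 to 173 (median 139), a log2 fold change of 0.084 (adjusted p = 0.809). Mrps11 had 29 to 83 (median 45) against 10 to 65 (median 25), a change of 0.96 (adjusted p = 0.104). Neither was DE and the difference was not tested. Mrpl47 lies 244 bases from Ndufb5, a subunit of respiratory complex I. Mrpl47 had 77 to 136 normalized counts (median 127) against 81 to 178 (median 151; log2 fold change -0.17, adjusted p = 0.613), while Ndufb5 had 153 to 399 (median 277.5) against 78 to 243 (median 140; 0.89, adjusted p = 0.0383). Mrpl32 lies 210 bases from Psma2, of the proteasome (0.36, adjusted p = 0.199), and Mrps27 91 bases from Ptcd2, which handles mitochondrial RNA (0.41 and 0.78, adjusted p = 0.171 and 0.189). Of the 15 neighbours in the table, 2 were DE, Ndufb5 and Pnpla7 (-0.52, adjusted p = 0.0369, 996 bases from Mrpl41). Over all genes, 8.71% were DE and higher within WOS, as Ndufb5 was, and 7.39% higher outside WOS, as Pnpla7 was. These pairs were chosen after their values were seen.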

How the data were processed

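RNA-seq libraries of mammary epithelial cells came from 13 separate rats, 6 at 6 weeks and 7 at 10 weeks, grouped by the age in their labels. Counts per gene were estimated by the authors (RSEM 1.2.22), scaled per library and deposited as rounded whole numbers, so the unit is taken as a score. The scaling method is not given in the sources used here. The labels name build rn5, while the methods name rn6. The table also holds the authors' own comparison of the ages (fold changes, mean abundances, a test statistic, p-values and false discovery rates), which was not used.

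Values were tested with limma 3.58.1 in R 4.3.3 on log2(value + 1) with equal weights and without covariates, on every gene whose mean reached 1. Two-sided p-values were adjusted by the Benjamini-Hochberg method over 14790 genes. The test was tried on simulated data with noise drawn separately for each gene and rat. The members here moved together from rat to rat, so that trial does not bear on their number of calls. No count test was run. Rat numbers are not shared between ages, so there is no pairing. Lists, promoters and figures were handled with pandas 2.3.3, numpy 2.4.6 and matplotlib 3.10.9 in Python 3.11.15.

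The members and lists were chosen with earlier results of these data known, so lists are described by counts and medians without a test. Named members are those that are DE, without overlap, with the 3 largest or smallest log2 fold changes or the 3 highest or lowest means, and Mrps36, Mrps30, Mrps18a and Mrpl12 for their roles. Genes named from the mitochondrial lists were DE, at most 6 per list, and 1 gene that met this rule is not reported here. Mrpl46, Mrps11, Mrpl47, Mrps27 and the divergent neighbours were named after their values were seen. Mrpl9, Mrpl11, Mrpl24, Mrpl30 and Mrpl53 were not analysed here. Alternatives were 4 scalings, 0.1 as the pseudocount, at least 10 in every rat or no minimum, limma-trend, quality weights, the rat sets, and each rat left out in turn. The fit without rats 70 and 84 was added after the data were seen.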

Additional observations from a re-analysis of the deposited data

Results flagged for a closer look

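In 6 of 46 groups tested (2 ages for each of 23 named members), the highest or lowest rat lay far from the others of its age. Chance gives about 1 such group in 20 where genes are not picked by their values. These members were partly named by theirs, so no excess is read from the 6. Mrpl1 had 4 normalized counts in rat 84 at 6 weeks, with 0 or 1 in the others, and 39 in rat 74 at 10 weeks, with at most 15 in the others. Rat 80 was low at 6 weeks for Mrpl47, with 77 against 114 to 136, and for Mrpl46, with 100 against 138 to 152. At 10 weeks Mrpl14 was at 54 in rat 81, against 19 to 33 in the others, and Mrpl12 at 240 in rat 83, against 191 to 211.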

How the results depend on the processing

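Of 286 values (11 DE members under 26 alternatives), 205 kept their direction and their call, 81 kept their direction but missed the threshold, and 0 turned. The counts depended most on the rats. The number of DE members higher within WOS was 33 with sample quality weights (45.2%) and 28 in the larger rat set (38.4%). This number was 0 in the smaller set and 2 without rats 70 and 84 (2.74%). The share of all genes called moved with it, to 20.3%, 13.6%, 0% and 3.81%, so the 0 in the smaller set, where limma called none of 14770 genes, says nothing of the members. Those higher outside WOS numbered 1 under both forms of library size scaling, 0 in the smaller set and 1 without rats 70 and 84. With 1 rat left out at a time these counts ran from 2 to 11 and from 1 to 2, and the median log2 fold change of the members ran from 0.25 to 0.45. The count outside WOS was 1 without rat 70, 71, 84, 72, 74, 78 or 87. In the smaller set, with 2 and 3 rats, and without rats 70 and 84 the median was 0.024 and 0.14. The causes were not tested.

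Among members that were not DE, the log2 fold change of Mrpl17 turned to -0.0049 under median-ratio scaling, -0.059 in the smaller set, -0.11 without rats 70 and 84, and -0.040, -0.032 and -0.015 without rat 70, 84 or 87 (range with 1 rat left out -0.040 to 0.061). Mrps18a turned to -0.18 in the smaller set. Mrpl33 turned to 0.31 with quality weights and 0.45 both in the larger set and without rat 80 (range with 1 rat left out -0.51 to 0.45). Mrps36 turned to -0.36 in the smaller set and -0.14 without rats 70 and 84. No paired analysis was possible because the ages share no rat numbers. Counts of Mrpl1, Mrpl33 and Mrpl34 were low.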
